A study of Mus musculus with 6 samples.

Results

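The regions described here are the RBPJ peaks of asynchronous F9 cells whose sequence holds the RBPJ consensus. They were selected on a measured property and on sequence together: a region had to be in the peak list of asynchronous cells, and its interval in mm9 had to hold at least 1 exact match, on either strand, to TTCCCACA or TTCCCACG. This gave 473 of the 5206 asynchronous peaks, or 9.09% of the list. The peak score therefore comes from the calls that chose the regions, its exact definition is not given in the sources used here, and it is reported as a description with no test. F9 is a mouse embryonal carcinoma line derived from a testicular teratoma. The study sequenced anti-RBPJ chromatin immunoprecipitations (2 per population) and an input from cycling cells, labelled as 95% interphase and 5% mitosis, and from cells treated with nocodazole, a drug that blocks the spindle and holds cells in mitosis (1 µg/ml for 4 hours). Both populations were fixed in 1% formaldehyde for 10 min, and the labels name no altered gene in either. The 2 peak lists used here come from the first immunoprecipitation of each population, so there were no replicates, and all intervals and tests cover counting error only.

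RBPJ is the DNA-binding protein through which Notch receptors act on transcription. When a ligand activates a Notch receptor, the intracellular domain is released, enters the nucleus and joins RBPJ together with a Mastermind coactivator, while in its absence RBPJ can recruit corepressors. Targets of this complex include the Hes and Hey repressor genes, and at some of them RBPJ sites lie as a pair that face each other, an arrangement that lets Notch complexes assemble side by side.

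The sequences of the highest scoring regions are shown first, because the last base of the site is compared below, and 5 of these 6 sites end in G. Each is the mm9 sequence of the strand that reads as the consensus, with 11 bases on each side and the 8 bases of the site in capitals. They are named by the gene with the closest annotated transcript start, which can lie inside a gene, and a minus sign before a distance to a start means upstream of it. The first lies at the start of 1110002N22Rik (chr11:79955622-79955651, plus strand), the second in an intron of Gm20388, 64864 bp from the start of Urb2 (chr8:126612112-126612141, minus strand), the third at -5903 bp from a SNORA17 gene, a small nucleolar RNA (chr3:8685332-8685361, plus strand), and the next inside the annotated ribosomal protein gene Rpl24, at -222 bp from an internal transcript start (chr16:55973691-55973720, minus strand). The last pair lie at the start of the ribosomal protein gene Rpl36a (chrX:131120148-131120177, plus strand) and in an intron of Cmtm7, where the closest start is that of Gm9888 (chr9:114672611-114672640, plus strand).
1110002N22Rik: cgccaggctctTTCCCACGcctgtgttcct
Urb2: aggtgaaactgTTCCCACAgctgaagctgt
SNORA17: cgcggccggggTTCCCACGctcctattgtt
Rpl24: ctccctttcctTTCCCACGctctctgtaaa
Rpl36a: atggtcgccgtTTCCCACGgctctgaggaa
Gm9888: aatccaggttaTTCCCACGctaattggctg

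The next sequences are from genes of the Notch pathway, shown to compare known targets with the regions above. They come from the Hes1 promoter (chr16:30065333-30065362, minus strand), a further region inside Hes1 (chr16:30066452-30066481, plus strand, overlapping an exon), the intergenic region closest to Hes5 (chr4:154320614-154320643, plus strand), the distal promoter of Hes7 (chr11:68932424-68932453, minus strand) and the promoter of a transcript that starts inside the Notch1 gene (chr2:26359711-26359740, minus strand). Hes1, Hes5 and Hes7 encode transcriptional repressors, and Notch1 encodes a receptor.
Hes1 promoter: ccaaactttctTTCCCACAgtaactttcag
Hes1 internal: ctcactccgcgTTCCCACGgtctgggtctt
Hes5: tctctagcgttTTCCCACGcccaggagcca
Hes7: tctacaaccttTTCCCACAcctagaagtag
Notch1: gcagctttcctTTCCCACAagacccgtacc

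The scores of the 473 regions ran from 10.1 to 45.6, with a median of 13.1 and quartiles of 11.4 and 16.5. The other 4733 asynchronous peaks ran from 10.1 to 58.3 with a median of 11.8. The 5 highest scores were 45.6 at 1110002N22Rik, 41.4 in Gm20388, 40.9 upstream of SNORA17, 38.8 at Rpl24 and 37.1 at Rpl36a. They were followed by 36.3 in Cmtm7, 33.8 upstream of Ehd3, which encodes a membrane-trafficking protein, 32.9 both in an intron of Nmnat2 and at -14401 bp from Hes5, and 32.5 in a region without a gene whose closest start, 79730 bp away, is that of Rnf144b. A region with a score of 32.9 on chromosome 18 is counted and not named, as are the other regions of the 13 on that chromosome. At the other end, 36 regions had the lowest score of the list, 10.1, and 172 of the 473 scored within 20% of it. The regions made up 29 of the 100 highest scoring asynchronous peaks. By score quartile of the list, with ties kept in list order, they numbered 70, 88, 109 and 206 from the lowest quartile to the highest.

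The sequence rule also had an edge. A further 263 asynchronous peaks held the first 7 bases followed by C or T and had a median score of 12.7, between the 13.1 of the regions and the 11.8 of all other peaks. Such a sequence, with no complete consensus, was present in 5.05% of the asynchronous peaks and in 2.12% of windows of the same width placed 2 kb to each side, where the consensus itself was present in 168 of 10412 windows, or 1.61%. In 51 other peaks the consensus lay only in the 50 bp beyond an end of the interval.

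The 473 regions held 483 sites, of which 215 ended in G and 268 in A. The share ending in G was 44.5% (exact Clopper-Pearson 95% interval 40.0 to 49.1). In the flanking windows 28 of 168 sites ended in G, or 16.7% (11.4 to 23.2). The odds ratio between them was 4.01, with a Woolf 95% interval of 2.57 to 6.25. By two-sided Fisher's exact test p was 2.83e-11, and the p adjusted by Benjamini and Hochberg's method across all 8 tests made was 2.27e-10. Sites that end in G hold a CG dinucleotide, which is sparse in most of the mouse genome and common at many promoters. Outside promoters the share was 41.3% of 351 sites in peaks against 17.3% of 156 sites in windows. Among sites placed at promoters by their own position, 53.8% of the 130 inside peaks (44.9 to 62.6) and 20.1% of the 5223 outside peaks ended in G. In introns the numbers ending in G were 65 of 155 and 9689 of 69288, and in intergenic sequence the shares were 37.6% of 117 and 11.8% of 86898. In each of these 3 classes the share inside peaks was above the share outside them.

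Read from the side of the genome, mm9 held 186139 consensus sites on the autosomes and the X chromosome, and 483 of them, or 0.259%, lay inside an asynchronous peak. Of the 24796 sites ending in G, 0.867% (0.755 to 0.990) lay inside a peak, against 0.166% (0.147 to 0.187) of the 161343 sites ending in A. At promoters 6.24% of 1121 sites ending in G (4.90 to 7.82) and 1.42% of 4232 sites ending in A (1.08 to 1.82) lay inside a peak. In intergenic sequence the shares were 0.428% and 0.0951%. A consensus site thus lay outside the called peaks in most cases in every class and with either last base. The authors kept only uniquely aligned reads. Sites in sequence where reads cannot align uniquely were not left out of these counts.

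The share ending in G by score is described with no test, and the intervals of the lowest and highest quartiles overlap. In the lowest quartile of the list 36.6% of 71 sites ended in G (25.5 to 48.9), in the middle quartiles 41.1% of 90 and 39.1% of 110, and in the highest quartile 51.4% of 212 (44.5 to 58.3). Among the 20 highest scoring regions 16 of 20 sites ended in G. The median score was 13.9 in the 213 regions whose site closest to the center ended in G and 12.7 in the 260 where it ended in A. The median G+C content of the interval was 56.1% in the former and 55.5% in the latter, and the part of base composition in the scores was not tested.

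**Figure D1:**
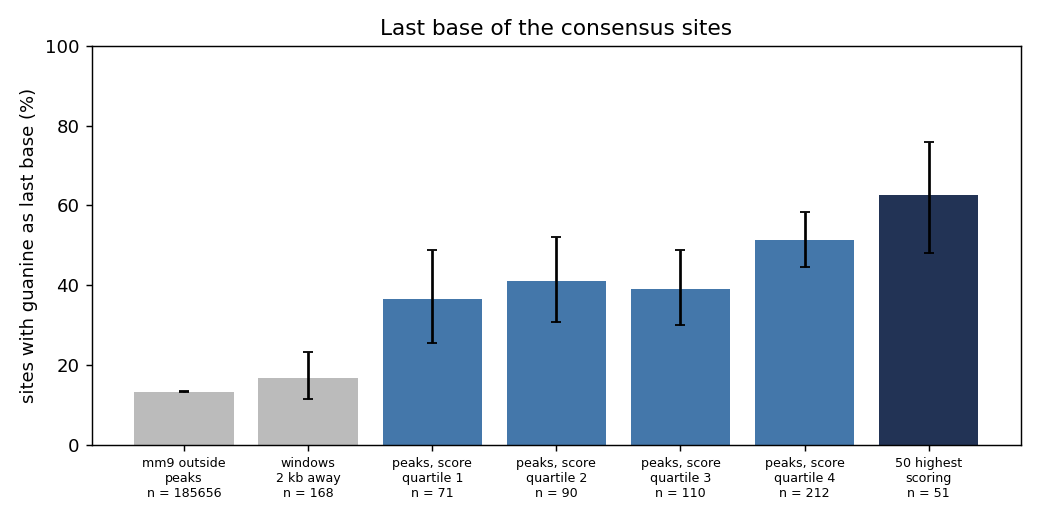
Bars give the percentage of consensus sites with guanine as the last base, with exact Clopper-Pearson 95% intervals, for sites of mm9 outside peaks, flanking windows, asynchronous peaks by score quartile (quartile 4 is the highest) and the 50 highest scoring motif-bearing peaks. The share was 13.2% outside peaks, 16.7% in the windows, 36.6% to 51.4% in the quartiles and 62.7% in the 50 highest scoring.

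The base after the site differed between peaks and the rest of the genome as well, a comparison chosen after the values were seen and given with no test. After a site ending in A, the next base was G in 49.6% of 268 sites in peaks (43.5 to 55.8) and in 30.5% of sites outside peaks. T followed in 7.46% (4.62 to 11.3) against 25.3%. After a site ending in G, the next base was C in 44.7% of 215 sites (37.9 to 51.6) against 19.3%, and T in 12.1% (8.05 to 17.2) against 33.9%. The 9-base word TTCCCACGC made up 19.9% of sites in peaks and 2.56% of sites outside them. TTCCCACAT showed the opposite order, with 4.14% in peaks and 22.0% outside. The 1110002N22Rik, SNORA17, Rpl24, Gm9888 and Hes5 sequences printed above hold the first of these words. Before a site ending in G, the base was C in 14.9% (10.4 to 20.4) of sites in peaks and in 31.6% outside. The median G+C content of the regions was 55.5%, and none is given for the sequence around sites outside peaks. The part of base composition in these differences was not tested.

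The position of the site in the peak differed with the last base, which is described here with no test. The site closest to the center was within 25 bp of it in 127 of 213 regions with a G-ending site, or 59.6% (52.7 to 66.3), and in 106 of 260 regions with an A-ending site, or 40.8% (34.7 to 47.0). An even spread of sites over the interval gives 30.1%. The median distance was 19.5 bp for the former and 30.5 bp for the latter. By score quartile, the median was 29.0, 31.5, 28.5 and 21.0 bp from the lowest to the highest. Rps2, which encodes a ribosomal protein, had its site at -2.5 bp from the center, with lower coordinates given a minus sign, and the region closest to Hes5 also at -2.5 bp. The Hes1 promoter site lay farther out, at -75.5 bp. The site was on the plus strand in 257 cases and on the minus strand in 226.

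**Figure D2:**
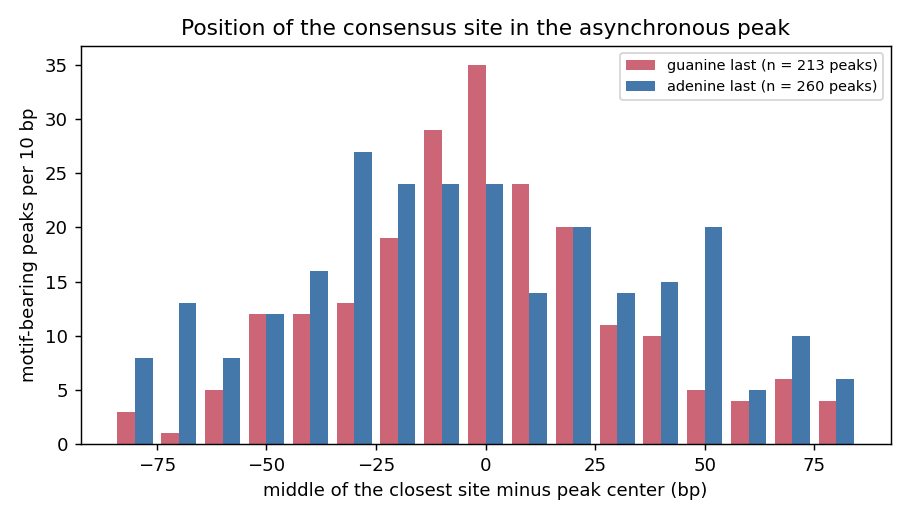
The histogram gives the number of motif-bearing peaks per 10 bp of distance between the middle of the site closest to the center and the peak center, for 213 peaks where this site ends in guanine and 260 where it ends in adenine. The guanine group is highest at the center and the adenine group is flatter, and the median distance was 19.5 bp for guanine and 30.5 bp for adenine.

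Most regions held a lone exact site. There were 463 regions with 1 site, 10 with 2 sites and none with more. Of the 10, 7 had both sites on the same strand, 2 had sites that pointed away from each other, and 1, in an intron of Dpf1, had sites that faced each other at a spacer of 56 bp. Facing here means that the minus-strand site has the lower coordinate and the plus-strand site the higher, the arrangement of the paired sites of Notch targets. The shortest spacers were 13 bp in an intron of Maml3, a Mastermind coactivator gene (score 10.1), 31 bp in an intergenic region closest to Cmklr1 (score 13.9) and 38 bp upstream of Zfp334, a zinc-finger gene (score 22). At Maml3 and Cmklr1 the bases around the site recur with it almost unchanged, so each of these pairs lies in a longer repeated stretch. The remaining pairs had spacers of 51 bp in an intergenic region 106521 bp from the start of Tpcn2, 54 bp in Lama1, 56 bp inside Plekhg5, 66 bp in an intergenic region at -27500 bp from Scn3b, 74 bp upstream of Fam100a and 86 bp in Etl4. Only the Zfp334 and Fam100a regions among these 10 had a mitotic center within 250 bp. The closest pairs are shown on the plus strand with both sites in capitals, for Maml3 (chr3:51826435-51826471), Cmklr1 (chr5:114057615-114057669) and Zfp334 (chr2:165213823-165213884).
Maml3: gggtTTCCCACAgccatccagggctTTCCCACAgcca
Cmklr1: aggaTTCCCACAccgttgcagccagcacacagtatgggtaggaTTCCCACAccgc
Zfp334: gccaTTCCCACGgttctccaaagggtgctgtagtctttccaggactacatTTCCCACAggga

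Facing pairs with a spacer of 15 to 17 bp were found when the partner was allowed 1 mismatch. They occurred at 4 of the 483 sites, or 0.828% (0.226 to 2.11), and at 385 of the 185656 sites of mm9 outside peaks, or 0.207%. With the partner also required to be exact, 0 of the 483 sites had a facing partner at this spacer, a count that allows a share of up to 0.761%, and 50 of the 185656 sites outside peaks had one, or 0.0269%, so 483 sites are too few to compare. For sites pointing away from each other at the same spacer, the share was 0.414% in peaks and 0.201% outside, and for sites on the same strand 0.414% and 0.642%. Over all spacers up to 50 bp, a facing partner with up to 1 mismatch was present at 7.66% of sites in peaks (5.45 to 10.4) and 3.66% of sites outside. A partner pointing away was present at 4.97% (3.21 to 7.30) and 3.68%, and a partner on the same strand at 15.5% (12.4 to 19.1) and 10.9%. The 4 facing pairs lay in the Hes1 promoter (chr16:30065340-30065379, minus strand), in an intron closest to Mir1192 (chr19:23221221-23221259, minus strand), inside Plekhg5 at -675 bp from an internal transcript start (chr4:151481112-151481151, minus strand) and in an intergenic region closest to St3gal1 (chr15:66902288-66902328, plus strand). They are shown on the strand where the exact site reads as the consensus, with both sites of the pair in capitals.
Hes1 pair: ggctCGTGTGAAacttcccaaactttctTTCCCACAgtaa
Mir1192 pair: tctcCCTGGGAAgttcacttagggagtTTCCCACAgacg
Plekhg5 pair: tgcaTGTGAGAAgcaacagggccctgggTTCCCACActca
St3gal1 pair: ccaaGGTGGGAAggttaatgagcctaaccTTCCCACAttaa

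Of these 4, the Hes1 pair had a spacer of 16 bp and a score of 26.6 and was the only one with a mitotic center within 250 bp. The Plekhg5 pair also had a spacer of 16 bp, with a score of 15.2. The Mir1192 and St3gal1 pairs had spacers of 15 and 17 bp and scores of 16 and 11.4.

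By genomic class, 129 of the 473 region centers lay at promoters (from 1 kb before to 100 bp after a transcript start), 149 in introns, 112 in intergenic sequence, 39 at distal promoters, 22 in exons and 22 at transcript ends. The promoter share was 27.3% (23.3 to 31.5), against 1500 of 4733 or 31.7% of the other asynchronous peaks. This odds ratio of 0.808 (0.654 to 0.999) had p = 0.0483 by two-sided Fisher's exact test, and after adjustment across the 8 tests the difference did not pass the threshold of 0.05 (adjusted p = 0.0644). Of the 129 promoter regions, 103 centers were upstream of the closest start, and the median position over all 129 was -103 bp. Promoters held 69 of the 213 regions with a G-ending site, or 32.4% (26.2 to 39.1), and 60 of the 260 with an A-ending site, or 23.1% (18.1 to 28.7).

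The regions were mostly spread out along the genome. Only 3 pairs of regions had centers within 10 kb of each other. At Has3, a hyaluronan synthase gene, the centers were 695 bp apart with scores of 19.8 and 21.1. At Hes1 they were 1050 bp apart with scores of 26.6 and 15.2, and at Col23a1, a collagen gene, 1094 bp apart with scores of 10.6 each. These pairs were named after their values were seen, apart from Hes1. Another asynchronous peak of any kind lay within 10 kb of 18.2% of the regions (14.8 to 22.0) and of 23.1% of the other asynchronous peaks (21.9 to 24.3).

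A center of a mitotic peak lay within 250 bp of 53 regions, or 11.2% (8.51 to 14.4). In the whole asynchronous list the share was 8.16%, and among the 4733 other peaks it was 372, or 7.86% (7.11 to 8.66). By two-sided Fisher's exact test the odds ratio of 1.48 (1.09 to 2.01) had p = 0.0136 and an adjusted p of 0.0273. The regions also scored higher, and in both groups the share was larger in the higher score quartiles. In the highest quartile of the list the shares were nearly equal, at 32 of 206 regions or 15.5% (10.9 to 21.2) and 166 of 1096 other peaks or 15.1% (13.1 to 17.4). In the third quartile they were 8.26% and 6.88%, in the second 7.95% and 6.34%, and in the lowest 5 of 70 or 7.14% (2.36 to 15.9) and 47 of 1231 or 3.82% (2.82 to 5.05). The part of the score in the overall difference was not tested beyond these values. The odds ratio did not pass the threshold with centers within 500 bp or 1 kb, with both lists at or above their median score, or with any last base allowed. All these shares compare the centers of 2 lists that were called separately. The study compared its populations by enrichment in the same region, so its shares are a different measure. A region without a mitotic center is not thereby shown to be unbound in mitosis, because binding too weak to be called was not measured.

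**Figure D3:**
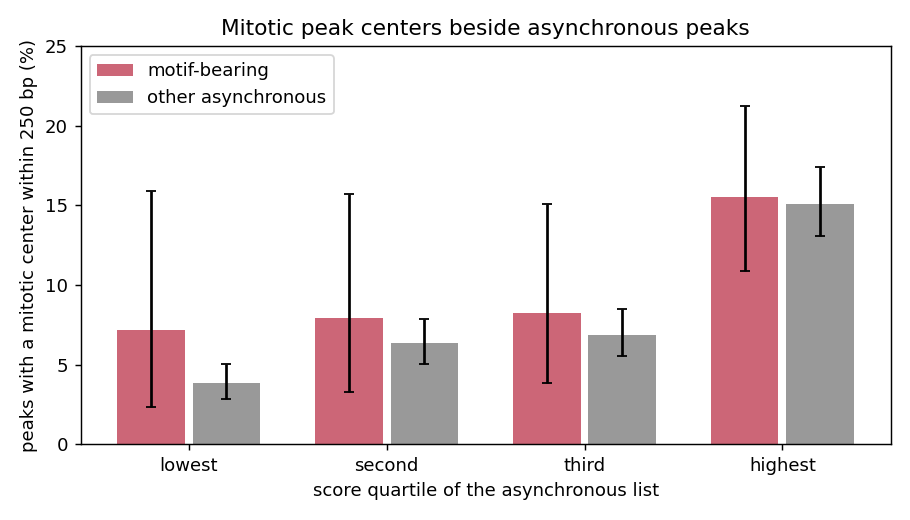
Bars give the percentage of asynchronous peaks with a mitotic center within 250 bp, by score quartile of the asynchronous list, for motif-bearing and other peaks, with exact Clopper-Pearson 95% intervals. The shares run from 7.14% and 3.82% in the lowest quartile to 15.5% and 15.1% in the highest, and the intervals of both groups overlap in every quartile.

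The distances to these mitotic centers were mostly short. The median was 32.0 bp for the 53 regions, with quartiles of 12.0 and 61.0 bp, against 55.0 bp for the other asynchronous peaks with a mitotic center, whose quartiles were 22.0 and 106 bp. Centers were within 50 bp in 38 of the 53, or 71.7% (57.7 to 83.2), and in 48.1% (42.9 to 53.3) of the others. The longest distance inside 250 bp was 213 bp, at Tomm40l, and the shortest outside it was 350.0 bp, at Cdc42bpa. Only 8 unpartnered regions had a mitotic center within 1 kb. The site closest to the asynchronous center lay inside the mitotic interval in 40 of the 53 cases.

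The highest scoring named regions with a mitotic center were at Rpl36a, Nav1, Klk10, Rps2, Mterfd3, Rara, Hes1, Atp5k, Rgs3 and, tied at 22.8, Mex3a and Hsp90aa1. At Rpl36a the mitotic center was 85 bp higher and had a mitotic score of 18.2. In an intron of Nav1, a neuron navigator gene (score 31.7), it was at -30 bp. At Klk10, a kallikrein gene (score 29.5), it was 10 bp higher, and at Rps2 (score 29.1) it was at -13 bp. At Mterfd3 (score 28.3) it was at -61 bp. Inside Rara, which encodes a retinoic acid receptor (score 27.4), it was at -12 bp with a mitotic score of 18.9. At Hes1 it was at -23 bp. At Atp5k, a subunit of ATP synthase (score 25.3), it was 5 bp higher. Inside Rgs3 (score 24.9) it was 157 bp higher, and at Hsp90aa1, a chaperone gene, 102 bp higher with a mitotic score of 19.7. Of these 11 sites, only those at Hes1 and Mex3a ended in A. The Rps2 site lies in an exon (chr17:24857107-24857136, minus strand), that of Rara inside the gene (chr11:98798786-98798815, plus strand) and that of Atp5k upstream of the gene (chr5:108863503-108863532, plus strand), and they are shown as examples of G-ending sites with a mitotic center nearby.
Rps2: atgtccacggaTTCCCACGgcccaggccgc
Rara: attctcccagaTTCCCACGgtccggccact
Atp5k: atagccgagcgTTCCCACGgggctggttac

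Regions with and without a mitotic center differed in class and in score. The median score was 15.2 in those with a center and 13.1 in those without. The part of the score in the differences given below was not tested beyond alternatives with a score minimum. Of the 53 with a center, 27 lay at promoters, or 50.9% (36.8 to 64.9), against 102 of the 420 without, or 24.3% (20.3 to 28.7). This gave an odds ratio of 3.24 (1.81 to 5.80), with p = 0.000116 by two-sided Fisher's exact test and an adjusted p of 0.000464. Seen the other way, 27 of 129 promoter regions had a mitotic center, or 20.9% (14.3 to 29.0), as did 157 of the 1500 other promoter peaks, or 10.5% (8.96 to 12.1). Outside promoters the shares of regions with a mitotic center were 8.72% in introns, 7.69% at distal promoters and 7.14% in intergenic sequence, and for other peaks 6.08%, 7.20% and 7.12%. At transcript ends and in exons 1 region each had a mitotic center, or 4.55% in both, against 7.18% and 6.28% of other peaks.

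**Figure D4:**
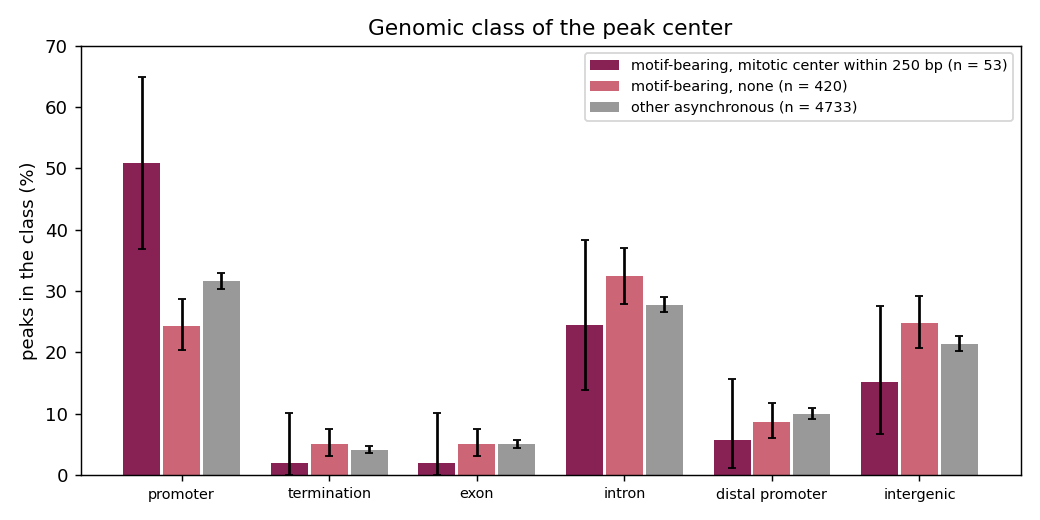
Bars give the percentage of peak centers in each genomic class, with exact Clopper-Pearson 95% intervals, for 53 motif-bearing peaks with a mitotic center within 250 bp, 420 without one and 4733 other asynchronous peaks. Promoters held 50.9%, 24.3% and 31.7% of these groups.

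A site ending in G was present in 31 of the 53 regions with a mitotic center, or 58.5%, and in 184 of 420 without, or 43.8%. The odds ratio was 1.81 (1.01 to 3.23) and did not pass the threshold, with p = 0.0563 by two-sided Fisher's exact test and an adjusted p of 0.0644. Pairs of exact sites were too few to compare, with 2 of 53 and 8 of 420 (odds ratio 2.02, 0.417 to 9.77, with p = 0.311 by Fisher's exact test before and after adjustment).

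CTCF, a zinc-finger protein known for its part in chromatin loops, was searched by the 12-base core of the study's CTCF gel-shift fragment, on both strands and with up to 2 mismatches. The core was present in 40 of the 473 regions, or 8.46% (6.11 to 11.3), and in 540 or 11.4% of the other asynchronous peaks. The odds ratio of 0.717 (0.513 to 1.00) did not pass the threshold, with p = 0.0551 by two-sided Fisher's exact test and an adjusted p of 0.0644. In the windows 2 kb to each side of the 473 regions the share was 1.80% (1.05 to 2.86). Within the regions the core was more frequent beside a mitotic center, in 11 of 53 or 20.8% against 29 of 420 or 6.90%, with an odds ratio of 3.53 (1.65 to 7.58). Here p was 0.00228 by two-sided Fisher's exact test and 0.00609 after adjustment. In the 40 regions with both elements, the middles of the elements were a median of 35.0 bp and at most 119 bp apart. The RBPJ site was closer to the peak center in 21 of them and the CTCF core in 17. Nav1, Klk10 and Atp5k were among the 11 with a mitotic center, and the Naprt1 promoter (score 22.4), with 1 mismatch in its CTCF core, was among those without one.

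Within 10 kb of a start, the regions had 500 genes of the 37252 annotated, and 407 of the 22350 protein-coding genes, or 1.82%. An asynchronous peak of any kind lay within this distance of 16.9% of the protein-coding genes. The lists below are described by counts beside these shares, with no test. Of 9 Hes and Hey genes, 4 had any asynchronous peak and 3 had a region with the consensus, namely Hes1, Hes3 and Hes7. At Hes1 the promoter region had a score of 26.6 and the internal region 15.2. The region at Hes3, also a repressor gene, had a score of 17.7 and lay past the 3' end of the gene, 2378 bp downstream of a transcript start inside it. The Hes7 region scored 11 and lay at -1527 bp, with a mitotic center at -47 bp from its own. The high region closest to Hes5 was farther than 10 kb from the start, at -14401 bp, and had no mitotic center within 250 bp.

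Of 70 Notch pathway genes, 6 had a region with the consensus, or 8.57% (3.21 to 17.7), and 25 had any asynchronous peak. Apart from the Hes genes they were Notch1 (score 13.5, -334 bp from a start inside the gene), with a mitotic center 1 bp from the asynchronous center, Notch4 (score 14.4), where the region lay 18 bp from the start of a transcript inside the gene, and Rbpjl (score 11.4, -69 bp), which encodes a relative of RBPJ. Of 43 pluripotency genes, 5 had a region and 23 any asynchronous peak. They were Stat3 (score 19, -309 bp), which encodes a signal transducer of leukemia inhibitory factor, Lefty2 (16.9, -4023 bp), a Nodal antagonist, and the transcription factor genes Esrrb (16.5, -6971 bp), Nr5a2 (15.2, 6307 bp) and Prdm14 (11, 1376 bp). None of these 5 had a region with a mitotic center within 250 bp, against 70 of the 407 protein-coding genes with a region, and 5 genes are too few to compare.

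Of 82 genes of cytosolic ribosomal proteins, 10 had a region with the consensus, or 12.2% (6.01 to 21.3), and 33 had any asynchronous peak. The highest were Rpl24 (score 38.8, -222 bp from a start inside the gene), Rpl36a (37.1, -20 bp), Rpl23 (30, -117 bp) and Rps2 (29.1, 69 bp). The Rps2 region is also the one counted at Rpl3l, where its center is at -7650 bp from the start, and at Ndufb10, a subunit of respiratory complex I, so these genes share a peak. The sites at these 4 ended in G, while those at Rpl23a (19.4) and in 1 of the regions counted at Rpl18 (13.5) ended in A. Over the list, 4 of the 10 genes had a region with a mitotic center within 250 bp, against 70 of the 407 protein-coding genes with a region, namely Rpl36a, Rps2, Rpl3l (by the peak shared with Rps2) and Rpl18, where the center was at -47 bp from the region with the A-ending site. That region lies inside Dbp, the gene with the closest start, and at -7913 bp from Rpl18, so the 4 genes have 3 such peaks. Of 200 genes of the mitochondrial machinery, 59 had any asynchronous peak, or 29.5%, and 7 had a region, or 3.50% (1.42 to 7.08). The 7 were led by Ndufb10, Atp5k, Mrpl24 (score 16.9, -8789 bp), Cox18 (16.5, -114 bp) and Atp5d (13.9, -5 bp). Of the 7, 4 had a region with a mitotic center within 250 bp.

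Counts in the other lists were small. Of 236 developmental transcription factor genes, 4 had a region, or 1.69% (0.464 to 4.28), namely Gata3 (score 14.8), Pbx2 (14.4), Pou4f2 (12.2) and Gata5 (10.1), and all 4 sites ended in G. The Pbx2 region is the one described at Notch4. Of the cell cycle genes, 3 had a region, or 2.24% (0.464 to 6.40), at Cdc34 (18.6), Cenpq (10.6) and Cdk6 (10.1), and that of Cenpq, a kinetochore protein gene, had a mitotic center 42 bp higher. Of 132 chromatin regulator genes, 4 had a region, at Ino80 (15.2), Kdm5b (13.5), Setd1a (12.7) and Phc2 (10.1). Of 64 genes of the TGF-beta and BMP pathway, 3 had a region, among them Lefty2 and Smad6 (11.8), and of 73 Wnt pathway genes only Ctnnb1, which encodes beta-catenin (11.8, -9955 bp), did.

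Further loci that the study examined in these cells also held the consensus. The Nmnat2 intron region (score 32.9) and the Fbxl19 promoter region (score 19, -706 bp) had sites ending in G and no mitotic center within 250 bp. The region on chromosome 14 whose closest start is that of Nufip1, 41781 bp away (score 28.7), had a site ending in A and no mitotic center within 250 bp. For these 3 regions this means only that the mitotic list used here has no peak center so close, and binding too weak to be called was not measured. The region upstream of Tpd52l2 (score 14.4, -624 bp) had a site ending in A and a mitotic center at -66 bp from its own.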

How the data were processed

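The authors aligned reads to mm9 with Bowtie 0.12.7 and used HOMER with the input of each population to call peaks, per the labels and the methods of the study. The score in each deposited list is the authors' own value for a peak, its exact definition is not given in the sources used here, and it was used only within a list. The second immunoprecipitations and the inputs were not analysed here. Python 3.11.15 was used with numpy 2.4.6 and pandas 2.3.3 for positions, pysam 0.24.0 for mm9 sequence, scipy 1.17.1 for tests and matplotlib 3.10.9 for plots. A center is the middle of an interval, 173 bp wide in asynchronous and 203 bp in mitotic cells. Genes and classes came from GENCODE for the same build, in the order promoter, transcript end, exon, intron, distal promoter, intergenic. Site, pair, distance and test steps were tested on simulated data. Named genes were loci the study names, the highest scoring regions with and without the mitotic requirement, pairs of sites, and members of the gene lists, with chromosome 18 counted but not named. The members and lists were chosen with earlier results of these data known. Shares have exact Clopper-Pearson and odds ratios Woolf 95% intervals. Alternatives varied the motif, interval, distance, score minimum, promoter, windows and mismatches.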

Additional observations from a re-analysis of the deposited data

How the results depend on the processing

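Over 14 results and 62 alternatives, 42 kept their direction and their side of the threshold or stayed close to the main value, taken as a count within 1.5 times it or a share inside its 95% interval. Here the side of the threshold was judged on p before adjustment. By that rule the promoter difference passed (Fisher's exact test, p = 0.0483), whereas its adjusted p of 0.0644 did not. The 12 alternatives for regions with against without a mitotic center were added after seeing the data. The number of motif-bearing peaks was 736 with any last base, 1869 with the 6-base core and 2393 with 1 mismatch, looser motifs by construction. The 53 regions with a mitotic center became 35 with both lists at or above their median score and 176 with the 6-base core. Their odds ratio of 1.48 fell to 1.34 with centers within 500 bp (Fisher's exact test, p = 0.0566), 1.25 within 1 kb (p = 0.121), 1.34 with both lists at or above their median score (p = 0.139) and 1.24 with any last base (p = 0.127), with p from 0.00230 to 0.139 over its alternatives. The promoter odds ratio of 0.808 was 0.834 with 2 kb upstream to 500 bp downstream (p = 0.0748), 0.820 with any overlap (p = 0.0645) and 0.813 at or above the median score (p = 0.107), all by Fisher's exact test. It was 0.769 with protein-coding transcripts only (Fisher's exact test, p = 0.0226). With the position of the site closest to the center it was 0.791 (Fisher's exact test, p = 0.0328). For the CTCF core in regions against other peaks, the odds ratio of 0.717 was 0.948 with up to 1 mismatch and 0.852 with up to 3. Neither passed the threshold. The odds ratio for a G-ending site beside a mitotic center was 1.85 within 500 bp (Fisher's exact test, p = 0.0329). It was 1.57 within 100 bp (Fisher's exact test, p = 0.160) and 1.76 at or above the median score (Fisher's exact test, p = 0.103). Peaks with 2 or more sites numbered 2 in the central 100 bp, 40 with any last base and 556 with 1 mismatch. Facing pairs at a spacer of 15 to 17 bp numbered 0 with an exact partner, 15 with 2 mismatches and 9 at 14 to 18 bp. Genes near a region numbered 1639 within 50 kb. For the values whose construction does not show it, the cause was not tested.

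No paired analysis was possible because a single list per population was analysed, although the labels number both immunoprecipitations alike. The number of peaks limits the precision of each share, and variation between cultures is not covered. No read depth was used. The smallest groups, such as 10 regions with 2 sites, allow only wide intervals.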

Other observations

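The motif-bearing peaks of the mitotic list held 118 consensus sites. In mitotic peaks with an asynchronous center within 250 bp, 27 of 48 sites ended in G, or 56.2% (exact Clopper-Pearson 95% interval 41.2 to 70.5). In mitotic peaks without one, 17 of 70 did, or 24.3% (14.8 to 36.0), against 13.2% of all mm9 sites outside asynchronous peaks. This comparison was chosen after the values were seen and was not tested.

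Within 11 bases of a consensus site, the E-box CACGTG was present at 11 of 483 sites in asynchronous peaks, or 2.28%, and at 1.70% of mm9 sites outside them. The 7 bases ACTACAA directly before the consensus were present at 0 of 483 sites and at 11 of 185656 sites outside asynchronous peaks. With a share of 0.00592% outside peaks, 483 sites are too few to compare.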
